A study of Mus musculus with 4 samples.

Results

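The collagen, laminin and integrin genes of the mouse embryonic neocortex are described here cell type by cell type. They were chosen by symbol alone, as every listed gene named as a collagen chain, a laminin chain, or an integrin alpha or beta chain, and comprise 81 of 32285 genes: 44 collagens, 11 laminins and 26 integrins. The symbol rule uses no expression value, but the set was chosen with earlier results of these data known. Each of the 81 had at least 1 UMI (unique molecular identifier, a count of single mRNA molecules) among the kept cells. With libraries added up, 71 of them reached 1 CPM (the UMIs of a gene as a share of all UMIs of the population, on the usual CPM scale) in at least 1 of the cell populations described below, 51 reached 10 CPM and 20 reached 100 CPM, while 10 stayed under 1 CPM in each population.

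Collagens are secreted triple helices: some form fibrils, type IV forms the mesh of basement membranes, and type VI forms beaded microfibrils. Laminins are secreted trimers of an alpha, a beta and a gamma chain that seed basement membranes. Integrins are cell-surface receptors made of an alpha and a beta chain that bind these proteins, and in the developing cortex they hold the end-feet of radial glia to the basement membrane under the meninges.

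Rostral neocortex at E15.5 was compared between 2 i4F-Nes and 2 control (CTR) single-cell libraries. i4F-Nes embryos had the genotype Nestin-Cre;i4F;ROSA-STOP-rtTA. i4F is a doxycycline-inducible cassette of the reprogramming factors Oct4, Sox2, Klf4 and Myc, and Nestin-Cre, active in neural progenitors, removes the stop in front of the transactivator rtTA. CTR embryos were littermates without Cre (i4F;ROSA-STOP-rtTA), so they carried the cassette and the silenced transactivator. All pregnant females received doxycycline in the drinking water (0.2 mg/ml) over 4 days starting at E10.5 and ending at E14.5, and the control embryos had thus been exposed to the drug too. The number of embryos per library is not given in the sources used here, and p-values measure only the spread between these libraries, which may be technical.

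The libraries held 6048 to 7551 kept cells each, 26748 in all, with a median of 11338.5 to 15161 UMIs per cell, and pairs of libraries shared 11 to 21 cell barcodes. Transcripts of Pou5f1, which encodes Oct4, were at 29.9 and 10.7 CPM in the i4F-Nes libraries and at 1.88 and 1.28 CPM in the CTR libraries. The X-inactivation transcript Xist stood at 848 CPM or more in 3 libraries and at 0.010 CPM in CTR replicate 1. The CTR libraries thus differ in sex, and Col4a5 and Col4a6 lie on the X chromosome.

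The samples are labelled as cortical neurons, but other cell types were present. Cells were gated on marker genes outside the 81. The gates held 2120 radial glia (the progenitors of the cortex), 14140 neurons, 98 endothelial cells, 98 mural cells (the pericytes and smooth muscle around vessels) and 155 microglia. They also held 766 reprogrammed progenitor-like and 470 reprogrammed neuron-like cells, every one of them from the i4F-Nes libraries. The markers of both gates came from genes reported to lead cells found almost only in i4F-Nes. The absence of gated cells from CTR is therefore no independent result. Each gate carried its own markers in every library: the 14 endothelial markers summed to 9674 to 13822 CPM in endothelial cells, the 12 mural markers to 9350 to 12707 CPM in mural cells, and the 14 microglial markers to 13813 to 18079 CPM in microglia. Radial glia held 16815 to 19104 CPM of their 14 markers against 238 to 310 CPM in neurons. Cells were gated on these same markers, so the sums follow from the gating and do not test the identity of the gates. Below, a level is the share of the UMIs of a gate that belongs to a gene, in CPM, and values of 4 libraries are given in the order i4F-Nes replicates 1 and 2, CTR replicates 1 and 2. The assay counts 3′ ends and levels are not divided by gene length, so a level compares cell types for 1 gene and not 1 gene with another.

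**Figure D1:**
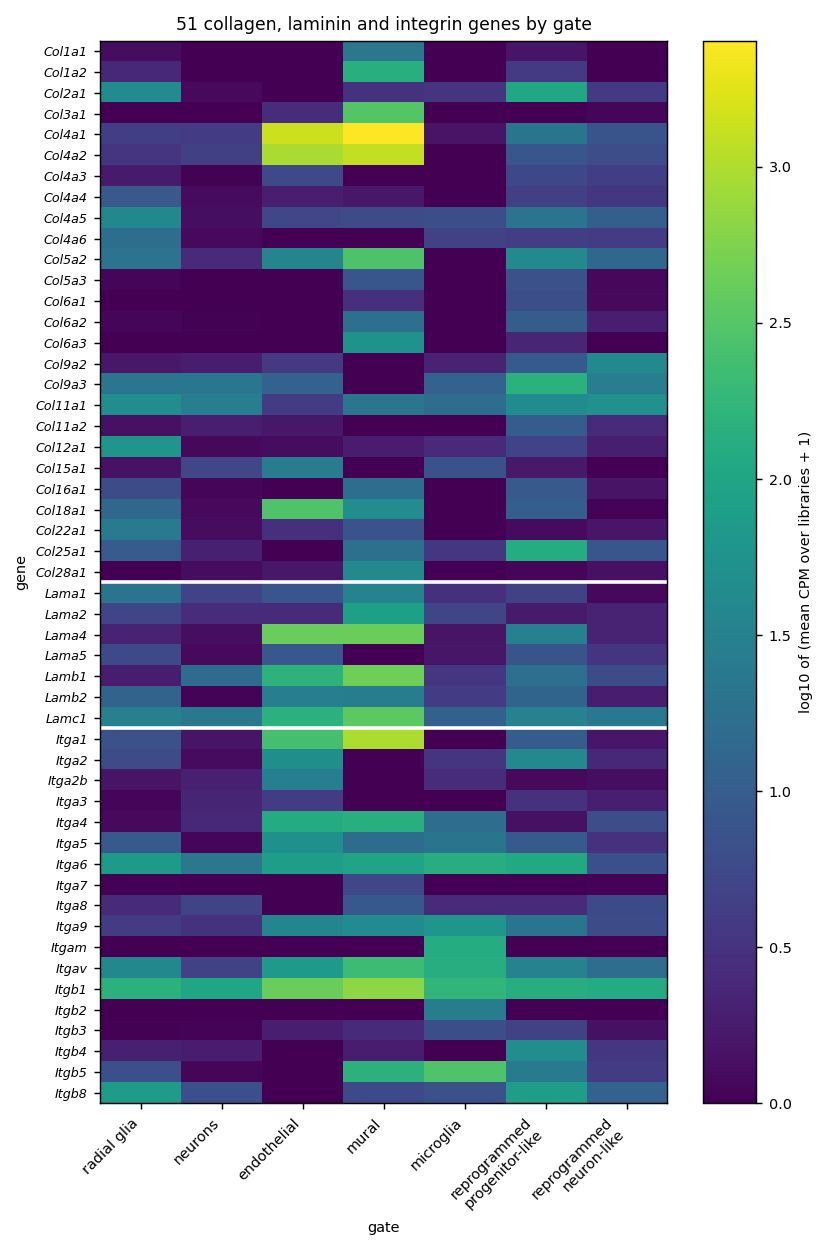
Mean level over libraries of 51 collagen, laminin and integrin genes (rows) in 7 gates (columns), as log10 of (CPM + 1). Col4a1 and Col4a2 are high in mural and endothelial cells, Itgam and Itgb2 in microglia, and Itgb8 and Col2a1 in radial glia and reprogrammed progenitor-like cells. Itga6 is high in microglia as well as in radial glia and reprogrammed progenitor-like cells.

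Col4a1 and Col4a2 were higher in vascular cells than in radial glia. Col4a1 and Col4a2 encode the chains of the type IV network found in most basement membranes. Col4a1 stood at 1412, 1749, 824 and 1576 CPM in endothelial cells and at 2288, 3227, 2009 and 2621 CPM in mural cells. In radial glia it was 2.57, 6.88, 1.76 and 1.69 CPM, so the vascular and radial glial libraries did not overlap. Against radial glia of the same libraries, Col4a1 was higher in endothelial cells by 9.04 ± 0.50 (adjusted p = 0.00079) and in mural cells by 9.67 ± 0.32 (adjusted p = 1.3e-13). These are log2 fold changes ± standard error from edgeR's quasi-likelihood test with the library as a block, as are the differences below between gates, with p adjusted over all genes tested. Col4a2 gave 8.94 ± 0.31 (adjusted p = 6.7e-08) and 9.08 ± 0.28 (adjusted p = 1.1e-17). CTR replicate 1, with 14 endothelial and 15 mural cells, was left out of these fits, which asked for 20 cells per library.

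Of the 81 genes, 35 passed the filter on low counts in the endothelial comparison, of which 18 were higher and 12 lower than in radial glia. Over all 11875 genes tested 24.4% were higher and 27% lower. The median log2 difference of the 35 was 0.98, against -0.13 over all genes. In the mural comparison 46 passed the filter, 32 were higher and 11 lower, beside 20.5% higher and 20.3% lower (40.8% together) of all 11898 genes. The median was 3.72 against -0.09. A gene can pass the filter through the gate where it is high, so these counts describe the genes tested and not all 81.

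**Figure D2:**
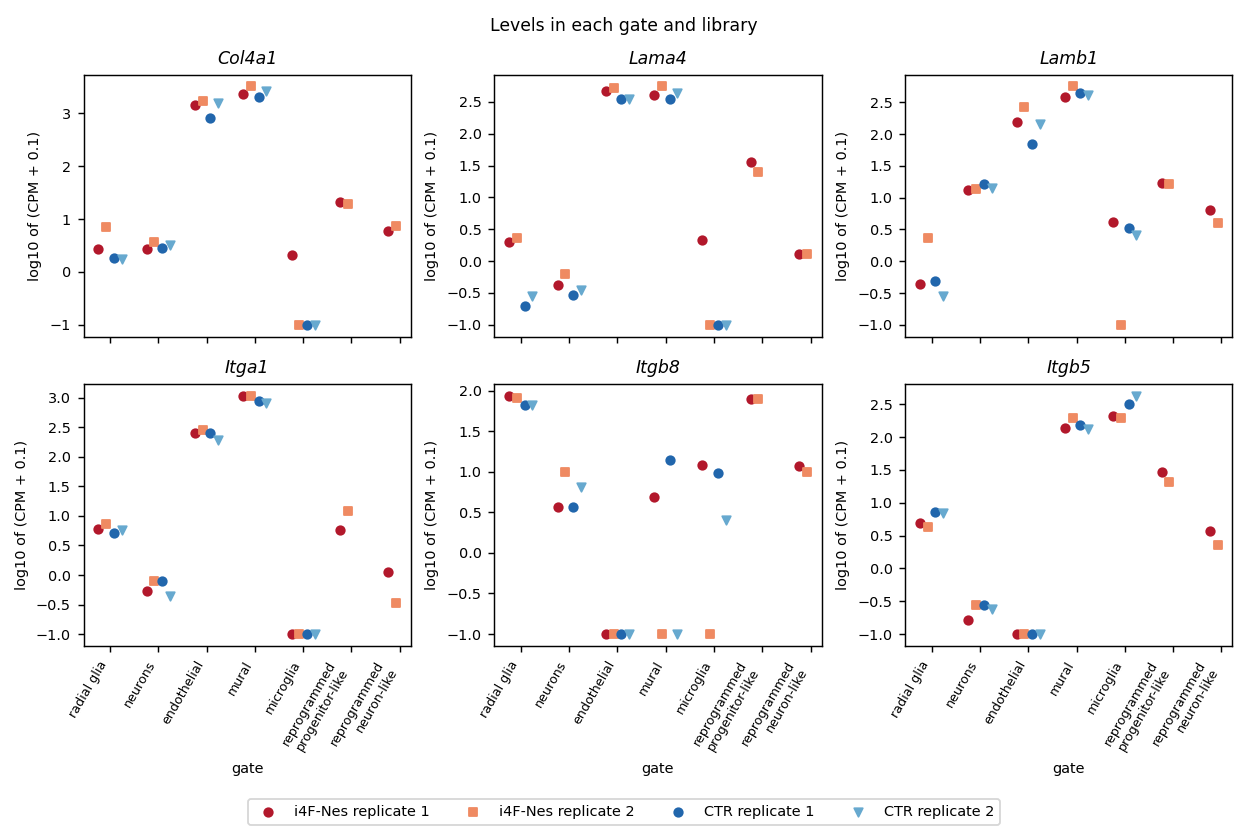
Level of 6 genes in each gate (x axis) and library (points), as log10 of (CPM + 0.1), so that a gene without a UMI sits at -1. Col4a1, Lama4 and Itga1 are high in endothelial and mural cells of all 4 libraries, Itgb8 in radial glia and reprogrammed progenitor-like cells, and Itgb5 in mural cells and microglia, with no UMI in endothelial cells.

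Among the laminins, Lama4, Lamb1 and Lamc1, which together make laminin 411 of the vessel wall, were higher in vascular cells. Lama4 stood at 471, 528, 347 and 344 CPM in endothelial cells, at 397, 550.2, 348 and 429 CPM in mural cells and at 1.89, 2.23, 0.0979 and 0.188 CPM in radial glia, with no overlap. Its difference from radial glia was 8.41 ± 0.28 (adjusted p = 5.5e-12) in endothelial and 8.27 ± 0.35 (adjusted p = 3.6e-09) in mural cells. Lamb1 was higher by 7.97 ± 0.32 (adjusted p = 1.4e-12) and 9.12 ± 0.39 (adjusted p = 2e-08), and Lamc1, which radial glia carried at 25.96 to 31.9 CPM, by 2.66 ± 0.24 (adjusted p = 5.4e-07) and 3.67 ± 0.19 (adjusted p = 5.8e-14). Lama2, best known from muscle laminin, was high in mural cells, at 86.1, 136, 73.8 and 44.04 CPM against 4.97, 4.64, 2.45 and 4.33 CPM in radial glia, a difference of 4.27 ± 0.33 (adjusted p = 1.3e-10). In endothelial cells it had 0 to 4.04 CPM. Lamc3, named after its values were seen, stood at 165, 182, 129.97 and 206 CPM in mural cells and was higher there by 8.89 ± 0.45 (adjusted p = 2.1e-08).

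The fibrillar chains Col3a1, Col1a1, Col1a2 and Col5a2 were higher in mural cells than in radial glia. Col3a1 stood at 265, 302, 358 and 330.3 CPM in mural cells and had no UMI in radial glia of any library. Over the 3 libraries tested it was at least 2241-fold higher than a level of 3 counts there. Endothelial and mural cells together made up 0.479% to 1.17% of the kept cells of a library and held 96.7% to 100% of its Col3a1 UMIs. Col1a2, of collagen I, stood at 108, 133, 179 and 132 CPM in mural cells and was higher by 6.26 ± 0.30 (adjusted p = 2.3e-14). Col1a1 stood at 23.9, 33.3, 24.6 and 3.67 CPM, lowest in CTR replicate 2, and was higher by 6.22 ± 0.69 (adjusted p = 7.3e-08). Col5a2, a chain that sets fibril width, stood at 292, 363, 228 and 264 CPM and was higher by 3.91 ± 0.19 (adjusted p = 1.9e-14). Col11a1, a minor fibrillar chain, was lower in mural cells by the same test, at -1.11 ± 0.30 (adjusted p = 0.0043), as was Col2a1, at -4.56 ± 0.60 (adjusted p = 1.1e-06). Col28a1, a collagen with von Willebrand A domains, stood at 50.2, 30.7, 28.1 and 51.4 CPM with no UMI in radial glia, at least 330.2-fold above 3 counts. Col16a1, which associates with fibrils, stood at 19.1, 23.03, 7.03 and 14.7 CPM, higher by 1.86 ± 0.51 (adjusted p = 0.0047), a call lost without i4F-Nes replicate 2 (adjusted p = 0.0502). Markers of meningeal fibroblasts, another source of fibrillar collagen, summed to 404 to 555 CPM in mural cells. Of these, Lum, Pdgfra and Dpt had no UMI there, Dcn had 1, and Foxc1 and Foxd1 gave most. The part of such cells in the mural values was not tested.

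Integrin chains in the vascular gates were compared with radial glia, and endothelial and mural cells were not tested against each other. Itga1, a receptor chain for collagen and laminin, stood at 255, 288, 250.3 and 196 CPM in endothelial cells and at 1066, 1088, 871 and 833 CPM in mural cells, with no overlap. Against radial glia it was higher by 5.5 ± 0.19 (adjusted p = 3.1e-15) and 7.38 ± 0.23 (adjusted p = 9.8e-18). Itga4, whose dimers bind fibronectin and VCAM-1, was higher by 9.21 ± 0.37 (adjusted p = 6.8e-14) and 9.25 ± 0.42 (adjusted p = 5.6e-15). The common partner Itgb1 was higher by 1.81 ± 0.13 (adjusted p = 3.8e-10) and 2.23 ± 0.18 (adjusted p = 3.2e-10), from 131 to 168 CPM in radial glia. Itgb5, which pairs with the alpha V chain to bind vitronectin, stood at 136, 194, 151 and 132 CPM in mural cells and had no UMI in endothelial cells of any library, at least 2.64-fold below radial glia. Itga2b, the alpha chain of the platelet fibrinogen receptor, stood at 18.03, 35.5, 20.2 and 40.9 CPM in endothelial cells and had no UMI in mural cells. It was above radial glia by 6.06 ± 0.54 (adjusted p = 7.5e-09). Itga7, a laminin receptor chain best known from muscle, stood at 7.17, 2.56, 0 and 7.34 CPM in mural cells.

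The multiplexin Col18a1, the source of endostatin, stood at 505, 237, 189.8 and 232 CPM in endothelial cells and was higher there by 4.82 ± 0.19 (adjusted p = 2.1e-14), and in mural cells by 2.14 ± 0.32 (adjusted p = 5.7e-06). Red-cell transcripts summed to 29696 and 66057 CPM in endothelial cells of i4F-Nes replicate 2 and CTR replicate 2, and to 51.5 and 40.4 CPM in those of the other two libraries. Their part in the endothelial values was not tested. Radial glial markers summed to 2450 to 4854 CPM in the vascular gates, a level that was likewise not tested for its part.

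**Figure D3:**
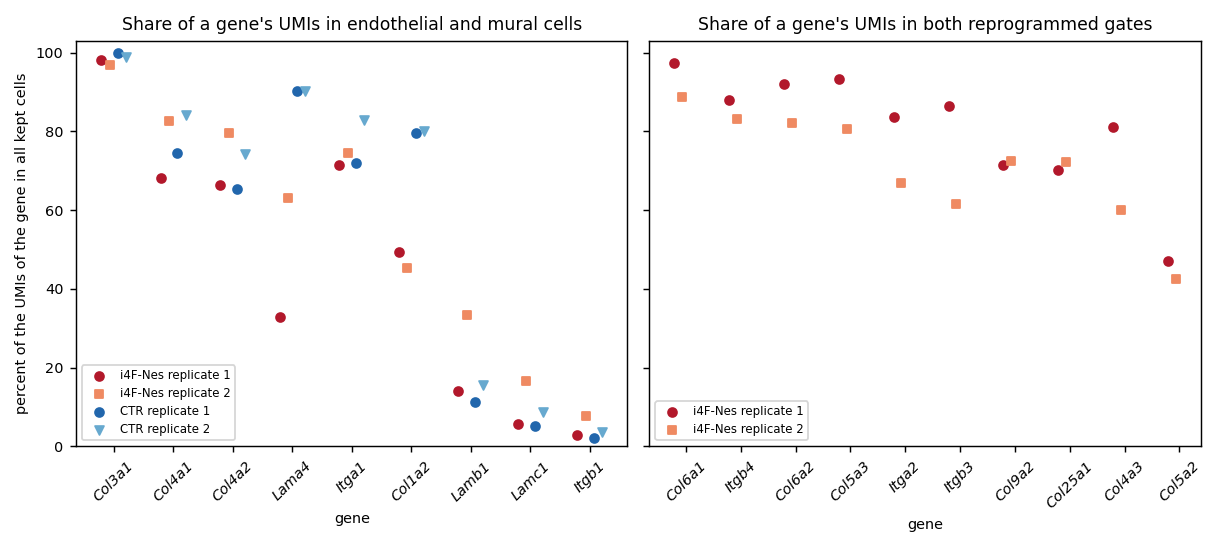
Percent of all UMIs of a gene (y axis) that lay in endothelial and mural cells together (left, all 4 libraries) or in both reprogrammed gates (right, the i4F-Nes libraries). Col3a1 lies between 96.7% and 100% in vascular cells, Lama4 is at 32.9% and 63.2% in i4F-Nes and above 90% in CTR, and Col6a1 is at 97.3% and 88.7% in reprogrammed cells.

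Microglia carried integrins and few matrix genes. With libraries added up, 11 of the 81 genes reached 10 CPM, of which 10 were integrins, 1 was a collagen and none a laminin. Itgam and Itgb2 form complement receptor 3 of myeloid cells. Itgam stood at 97.2, 28.1, 154 and 232 CPM and Itgb2 at 26.3, 23.4, 28.9 and 29.7 CPM. Neither had a UMI in radial glia, which makes them at least 1515-fold and 302-fold higher than a level of 3 counts there. Itgb5 stood at 213, 197, 325 and 428 CPM, above radial glia by 5.89 ± 0.25 (adjusted p = 1.7e-13).

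Itga9, a tenascin receptor chain, Itgav and Itga6 were higher by 4.5 ± 0.44 (adjusted p = 9.7e-08), 1.94 ± 0.33 (adjusted p = 0.00024) and 1.14 ± 0.26 (adjusted p = 0.0013). Of the 29 genes tested 10 were higher and 14 lower, beside 21% and 18.8% of 11815 genes (39.8% in either direction). Lamc1 was among the lower ones, at -1.32 ± 0.41 (adjusted p = 0.014), a call lost without i4F-Nes replicate 1 (adjusted p = 0.070) or CTR replicate 2 (0.096). Itga5 was higher by 1.48 ± 0.46 (adjusted p = 0.015), a call lost without i4F-Nes replicate 1 (adjusted p = 0.34). Microglia were shallow, with a median of 2191.5 to 9917.5 UMIs per cell, and those of i4F-Nes replicate 1 held 18628 CPM of red-cell transcripts, whose part was not tested. Neuronal markers summed to 1269, 861, 2066 and 1758 CPM in microglia, against 359 to 448 CPM in radial glia. Radial glial markers summed to 762 to 1998 CPM in microglia. The part of these levels in the microglial values was likewise not tested.

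In radial glia, several receptor chains and collagens had levels that can be followed in every library. Itgb1 stood at 145, 168, 131 and 156 CPM. The laminin receptor chain Itga6 stood at 84.7, 77.4, 51.5 and 69.4 CPM, and Itgb8, whose alpha V dimer activates TGF-beta, at 86.4, 80.3, 65.7 and 66.4 CPM. Both were higher in each i4F-Nes library than in either CTR library, while Itgb1 overlapped. Neither Itga6 nor Itgb8 passed edgeR's threshold between the groups, at 0.41 ± 0.18 and 0.32 ± 0.14 (adjusted p = 0.99 for each). Col2a1, the fibrillar chain best known from cartilage, stood at 52.8, 48.3, 39.3 and 33.5 CPM, and Col12a1, which decorates fibrils, at 51.4, 69.6, 52.7 and 62.5 CPM. The minor type IV chain Col4a5 stood at 36.7, 43.3, 28.99 and 41.2 CPM and the embryonic laminin chain Lama1 at 18.9, 15.1, 27.7 and 15.1 CPM. Col11a1 stood at 41.6, 56.04, 38.1 and 45.9 CPM, and Lama5, of laminin 511, at 5.14, 5.84, 2.55 and 5.27 CPM. Of these, Col2a1 was higher in each i4F-Nes library and the others overlapped between the groups. Col2a1 did not pass edgeR's threshold either, at 0.45 ± 0.16 (adjusted p = 0.99). With so few libraries a permutation of the group labels cannot give a p under 0.33. The order of the libraries alone thus does not show a difference for Itga6, Itgb8 or Col2a1.

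Most of the genes tested were lower in neurons. Of 49 tested, 31 were lower and 9 higher than in radial glia, beside 37.5% lower and 42% higher (79.4% together) of 15303 genes. The median log2 difference was -1.48 against 0.07 over all genes. Col12a1 stood at 0.0934, 0.524, 0.0980 and 0.0714 CPM in neurons, a difference of -8.16 ± 0.31 (adjusted p = 7e-07). Col2a1 gave -7.32 ± 0.17 (adjusted p = 1.7e-11), Lamb2, a beta chain of mature basement membranes, -7.07 ± 0.36 (adjusted p = 1.9e-08), and Col4a5 -6.5 ± 0.14 (adjusted p = 1.3e-11). Of the integrins, the fibronectin receptor chain Itga5 gave -5.95 ± 0.28 (adjusted p = 5e-09), Itgb5 -5.17 ± 0.30 (adjusted p = 3.2e-08), Itgb8 -3.57 ± 0.34 (adjusted p = 0.00079), Itgav -3.19 ± 0.10 (adjusted p = 2.2e-10) and Itga6 -1.48 ± 0.15 (adjusted p = 0.00012). Col11a1 was lower, at -0.54 ± 0.10 (adjusted p = 0.0006), while Col16a1 gave -5.16 ± 0.29 (adjusted p = 2.1e-08) and Lama5 -4.29 ± 0.27 (adjusted p = 6.6e-08). Itgb1 differed little in size from radial glia: at 110.3, 98.8, 109.6 and 95.3 CPM it differed by -0.31 ± 0.08 (adjusted p = 0.0052).

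A few genes were higher in neurons. Lamb1 stood at 13.1, 13.7, 16.3 and 14.3 CPM in neurons and at 0.343, 2.23, 0.392 and 0.188 CPM in radial glia, a difference of 4.61 ± 0.40 (adjusted p = 3.7e-05). Col15a1, a basement membrane collagen, stood at 3.63, 8.28, 1.25 and 4.14 CPM in neurons, higher by 3.55 ± 0.34 (adjusted p = 2.2e-06). Itga3, a laminin receptor chain, Itga4, and Itga8, a receptor chain for nephronectin, were higher by 3.32 ± 0.47 (adjusted p = 6e-05), 2.81 ± 0.51 (adjusted p = 0.00036) and 1.48 ± 0.24 (adjusted p = 0.00015), each under 5 CPM. Endothelial and mural markers summed to 5.5 to 7.3 and 1.5 to 2.6 CPM in neurons, against 7.9 to 9.7 and 38.5 to 70.7 CPM in radial glia. Both gates left out cells with more than a few of these markers. The part of the markers that remained was not tested.

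The comparison of i4F-Nes with CTR over all kept cells asked which of these genes differ between the embryos. Of 69 genes tested 10 were higher in i4F-Nes and none was lower, beside 2.65% higher and 0 lower of 18612 genes. The median log2 difference of the 69 was 0.68, with 56 above 0, against -0.02 over all genes. In sums over all cells, a change in the number of cells of a type and a change in RNA per cell cannot be told apart. Both i4F-Nes libraries lay above both CTR libraries for each of the 10. They were selected by the test on these same libraries, so this order adds no support.

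Of the collagens, Col6a1, an alpha chain of collagen VI, had levels of 0.864 and 0.787 CPM in i4F-Nes and no UMI among 12767 CTR cells, at least 49.9-fold above 3 counts (adjusted p = 0.017). Its partner chain Col6a2 stood at 1.84 and 0.990 CPM against 0.165 and 0.194 CPM, a difference of 2.88 ± 0.44 (adjusted p = 0.042). Col5a3, a minor fibrillar chain, stood at 1.03 and 0.787 CPM against 0.0206 and 0.0365 CPM, a difference of 4.87 ± 0.49 (adjusted p = 0.015). Col25a1, a transmembrane collagen, stood at 12.5 and 37.1 CPM against 1.67 and 1.91 CPM, a difference of 3.71 ± 0.57 (adjusted p = 0.043). Leaving out either CTR library ended the call, with an adjusted p of 0.55 without replicate 1 and of 0.34 without replicate 2. Col4a3, a type IV chain of the kidney filter, gave 2.85 ± 0.36 (adjusted p = 0.026), and Col9a2, of cartilage fibrils, 2.27 ± 0.27 (adjusted p = 0.023). Col5a2 gave 1.66 ± 0.26 (adjusted p = 0.047), which was lost without i4F-Nes replicate 2 (0.081).

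Of the receptors, Itgb4, the partner of Itga6 in hemidesmosomes, stood at 8.11 and 6.52 CPM against 0.671 and 0.608 CPM, a difference of 3.42 ± 0.26 (adjusted p = 0.008). The collagen receptor chain Itga2 stood at 6.38 and 7.87 CPM against 0.537 and 0.814 CPM, a difference of 3.31 ± 0.32 (adjusted p = 0.014). Itgb3, of the vitronectin receptor, stood at 0.733 and 0.660 CPM against 0.0619 and 0.0851 CPM, a difference of 3.14 ± 0.40 (adjusted p = 0.027).

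**Figure D4:**
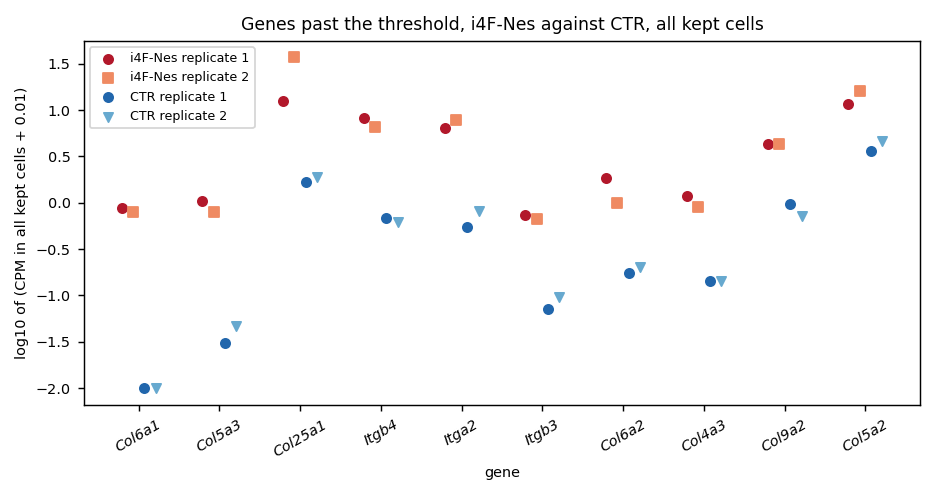
Level of the 10 genes past the threshold in all kept cells, as log10 of (CPM + 0.01), with 1 point per library. The i4F-Nes libraries lie above the CTR libraries for every gene, and Col6a1 has no UMI in CTR and so sits at -2. The genes were selected by the test on these same libraries.

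For 9 of these 10 genes most UMIs in both i4F-Nes libraries lay in the reprogrammed cells, which were 8.59% and 9.13% of the kept cells and 17.8% and 18.9% of the UMIs of replicates 1 and 2. They held 97.3% and 88.7% of the Col6a1 UMIs, 87.8% and 83.1% of Itgb4, 83.5% and 66.9% of Itga2 and 70.1% and 72.3% of Col25a1. Col5a2 had the lowest share of the 10, at 46.9% and 42.5%. Without these cells 0 of 67 members and 0 of 18250 genes passed by edgeR, with 12 members and 667 genes at an unadjusted p under 0.05. The median log2 difference of the 67 was still 0.44, with 57 above 0, against 0.0016 over all genes. Itgb4 was then at 1.2 and 1.36 CPM in i4F-Nes, a difference of 0.94 ± 0.29, and Col6a2 at 0.178 and 0.219 CPM, a difference of 0.07 ± 0.42. Col25a1 was at 4.55 and 12.7 CPM, a difference of 2.21 ± 0.52. The adjusted p of these was 0.998, and Col6a1 and Col5a3 no longer passed the filter on low counts.

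Reprogrammed progenitor-like cells were compared with radial glia of the same libraries. Of 50 genes tested 25 were higher and 9 lower, beside 25.2% and 20.9% of 14454 genes. Their median log2 difference was 0.55, that of all genes 0.02. These cells were deeper than radial glia, with medians of 37158 and 28682 UMIs against 14927 and 14365, and 139 of 905 had been removed by their doublet score. The part of remaining doublets was not tested, and that of depth was tested only in the thinned shares below. Their 10 markers, chosen from earlier results on these cells, summed to 3797 and 3159 CPM. Radial glial markers summed to 3867 and 5402 CPM in them, endothelial markers to 20.2 and 15.1 CPM and mural markers to 21.8 and 14.6 CPM. Neuronal markers summed to 1645 and 883 CPM, against 431 and 448 CPM in radial glia of the same libraries. Oligodendrocyte precursor markers summed to 58.0 and 99.1 CPM, against 4.5 and 22.9 CPM. The part of these levels in the differences was not tested.

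**Figure D5:**
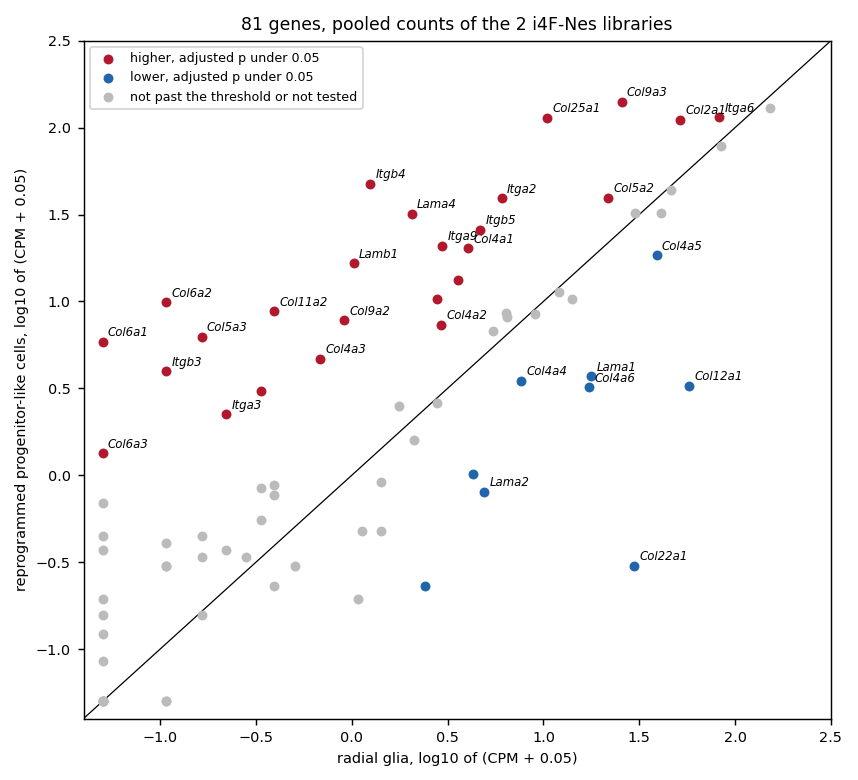
Level of the 81 genes in radial glia (x axis) and in reprogrammed progenitor-like cells (y axis) of the i4F-Nes libraries added up, as log10 of (CPM + 0.05), with the line of equal levels. Col6a1, Itgb4 and Col25a1 lie far above the line, Col22a1 and Col12a1 far below it.

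All 3 main chains of collagen VI were higher in the reprogrammed progenitor-like cells. Col6a1 stood at 6.3 and 5.03 CPM with no UMI in radial glia, at least 33.9-fold above 3 counts there (adjusted p = 0.00025 by edgeR, 0.14 by DESeq2). Col6a2 stood at 12.6 and 5.49 CPM with 1 UMI in radial glia, a ratio of 172 (exact 95% counting interval 30.7 to 6834) (edgeR adjusted p = 3.7e-05). Col6a3 stood at 1.22 and 1.4 CPM with no UMI in radial glia, at least 7.52-fold above 3 counts (edgeR adjusted p = 0.0042). Mural cells also carried Col6a3 and Col6a2, at 35.9 to 77.1 and 11.01 to 23.9 CPM, with Col6a1 at 0 to 5.12 CPM. On GRCm38, Col6a1 lies on chromosome 10 from 76708792 to 76726168 and Col6a2 on chromosome 10 from 76595762 to 76623630, while Col6a3 lies on chromosome 1 from 90765923 to 90843971.

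The bases before the starts of these 3 chains, each past edgeR's threshold, are shown with those of Col25a1, from RefSeq (GRCm38.p6) and on the strand of the gene. No annotated exon overlaps these windows. Capitals mark matches on either strand to any of 5 motifs: ATGCAAAT (POU factors such as Oct4), CATTGTT (Sox factors), CACGTG (Myc), and CACACCC and GGGCGG (Klf and Sp factors). No matches overlap each other.
Col6a1, chr10:76726169-76726294, minus strand: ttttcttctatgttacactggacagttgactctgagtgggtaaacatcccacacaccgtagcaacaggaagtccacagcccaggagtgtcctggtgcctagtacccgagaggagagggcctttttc
Col6a2, chr10:76623631-76623880, minus strand: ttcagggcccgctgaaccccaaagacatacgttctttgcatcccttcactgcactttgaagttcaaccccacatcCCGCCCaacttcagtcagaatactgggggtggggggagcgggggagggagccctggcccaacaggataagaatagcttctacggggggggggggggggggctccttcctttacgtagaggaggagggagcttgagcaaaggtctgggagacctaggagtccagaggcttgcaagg
Col6a3, chr1:90843972-90844221, minus strand: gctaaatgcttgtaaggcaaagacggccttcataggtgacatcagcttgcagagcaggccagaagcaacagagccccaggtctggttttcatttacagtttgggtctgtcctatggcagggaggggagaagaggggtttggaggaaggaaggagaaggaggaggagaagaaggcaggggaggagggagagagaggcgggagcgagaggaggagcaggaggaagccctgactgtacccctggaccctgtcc
Col25a1, chr3:130180595-130180844, plus strand: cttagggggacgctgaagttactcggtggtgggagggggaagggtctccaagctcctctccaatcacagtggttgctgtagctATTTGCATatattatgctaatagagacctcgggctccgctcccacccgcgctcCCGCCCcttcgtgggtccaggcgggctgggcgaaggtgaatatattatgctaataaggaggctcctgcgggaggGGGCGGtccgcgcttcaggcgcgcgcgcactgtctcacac
The Col6a1 and Col6a3 windows held none of these letters, and Col6a2 held 1 GGGCGG match, as 32.7% of 32851 promoter windows of 250 bases do. The Col25a1 window precedes the RefSeq start and lies inside the longer GENCODE gene. It held 1 ATGCAAAT match, as 1.60% of windows do, and 2 GGGCGG matches. Among the 58 of the 81 genes with a RefSeq window, 2 held ATGCAAAT in any window, 1 CATTGTT, none CACGTG, 5 CACACCC and 29 GGGCGG. These counts are per gene, over any of its windows, and the shares are per window, so they cannot be compared directly. The other shares over all windows were 3.29% for CATTGTT, 6.02% for CACGTG and 6.93% for CACACCC.

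Other collagens were higher too. Col25a1 stood at 64.7 and 193 CPM against 10.03 and 11.2 CPM in radial glia, a difference of 3.43 ± 0.42 (adjusted p = 0.013) that missed the threshold with no filter on low counts (adjusted p = 0.12). Col9a3, of cartilage collagen IX, stood at 111 and 189 CPM against 24.6 and 27.3 CPM, a difference of 2.54 ± 0.17 (adjusted p = 0.00013), and Col9a2 gave 3.19 ± 0.34 (adjusted p = 0.00022). Col11a2 was higher by 4.72 ± 0.41 (adjusted p = 8.1e-05) and Col2a1 by 1.15 ± 0.11 (adjusted p = 0.00015). Types II, IX and XI are the collagens of cartilage fibrils. Col5a3 stood at 7.17 and 4.65 CPM, with 2 UMIs in radial glia and a ratio of 54.2 (exact 95% counting interval 14.8 to 451).

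Shares of cells with a UMI were compared after thinning each cell to 3800 UMIs, with exact 95% intervals that cover counting error only. Col9a3 was found in 34.9% (30.4 to 39.7) and 51.7% (46.3 to 57.1) of reprogrammed progenitor-like cells, in 8.90% and 8.75% of radial glia and in 7.30% and 8.13% of neurons of the same libraries. Unthinned, the shares were 91.9% and 94.0% against 25.2% and 20.8% in radial glia. Col25a1 was found after thinning in 17.7% and 33.3% of reprogrammed progenitor-like cells, in 2.5% and 2.39% of radial glia and in 0.351% and 0.486% of neurons. Unthinned, it was in 46.9% and 63.8% of reprogrammed progenitor-like cells.

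Within collagen IV the chains differed in direction. Col4a1 was higher by 2.33 ± 0.36 (adjusted p = 0.0043) and Col4a2 by 1.35 ± 0.36 (adjusted p = 0.018), which DESeq2 did not call (adjusted p = 0.13). Col4a3 was higher by 2.92 ± 0.42 (adjusted p = 0.001). Col4a4, Col4a5 and Col4a6 were lower, at -1.11 ± 0.28 (adjusted p = 0.013), -1.01 ± 0.13 (adjusted p = 0.00049) and -2.31 ± 0.27 (adjusted p = 0.00046), of which DESeq2 did not call Col4a4 (0.14). These genes lie in head-to-head pairs. The UMIs of Col4a1 per UMI of Col4a2 were 2.76 (95% counting interval 2.25 to 3.40) and 2.79 (2.13 to 3.68) in reprogrammed progenitor-like cells, 2.00 to 2.17 in mural cells, 1.18 to 1.78 in endothelial cells and 0.772 to 1.09 in neurons. The UMIs of Col4a5 per UMI of Col4a6 were 6.5 and 5.16 in reprogrammed progenitor-like cells, against 2.02 and 2.86 in radial glia of the same libraries. Col4a4 and Col4a3 start 71 bases apart on chromosome 1, in opposite directions. The stretch between their starts is shown on the strand of Col4a4, because the neighbours differed in direction.
Col4a4 to Col4a3, chr1:82586850-82586920, minus strand: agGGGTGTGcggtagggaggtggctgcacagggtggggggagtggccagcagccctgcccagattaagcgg
It held 1 CACACCC match, on the opposite strand, in capitals, as 2.26% of windows of 71 bases before a start do.

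Laminin chains also differed. Lama4 stood at 36.2 and 25.3 CPM in reprogrammed progenitor-like cells against 1.89 and 2.23 CPM in radial glia, a difference of 4.05 ± 0.23 (adjusted p = 9.1e-06), and Lamb1 at 16.9 and 16.1 CPM, a difference of 4.09 ± 0.53 (adjusted p = 0.0029). Lama1 and Lama2 were lower, at -2.17 ± 0.20 (adjusted p = 0.00012) and -2.59 ± 0.38 (adjusted p = 0.001). Lamc1, at 34.2 and 29.2 CPM, differed by 0.21 ± 0.12 (adjusted p = 0.19).

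Among the integrins, Itgb4 stood at 53.1 and 38.6 CPM against 1.37 and 0.860 CPM in radial glia, a difference of 5.40 ± 0.20 (adjusted p = 1.6e-06). Its partner Itga6 stood at 115 and 113 CPM, higher by 0.57 ± 0.09 (adjusted p = 0.0016). Itga2 gave 2.74 ± 0.19 (adjusted p = 2.9e-05), Itgb5 2.55 ± 0.19 (adjusted p = 3.1e-05) and Itga9 2.79 ± 0.49 (adjusted p = 0.012). Itgb3, with 1 UMI in radial glia, stood at 4.49 and 2.98 CPM, a ratio of 68.3 (exact 95% counting interval 12.01 to 2723). Itgb8 and Itgb1 did not pass the threshold, at -0.01 ± 0.10 (adjusted p = 0.96) and -0.18 ± 0.09 (adjusted p = 0.14). After thinning, Itgb4 was found in 17.9% (14.4 to 22) and 12.4% (9.09 to 16.3) of reprogrammed progenitor-like cells, 0.417% and 0.265% of radial glia and 0.677% and 0.486% of neurons. Unthinned, it was in 74.6% and 58.3% against 2.08% and 1.24% of radial glia.

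Col22a1 and Col12a1 had the largest decreases among the genes named here. Col22a1, a collagen of tissue junctions, stood at 0.233 and 0.279 CPM against 18.3 and 52.1 CPM in radial glia, a difference of -6.81 ± 0.30 (adjusted p = 3.2e-06). Col12a1 stood at 1.34 and 6.24 CPM against 51.4 and 69.6 CPM, a difference of -4.12 ± 0.45 (adjusted p = 0.006).

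Reprogrammed neuron-like cells were compared with neurons of the same libraries. Of 49 genes tested 19 were higher and 5 lower, beside 21.6% and 21.3% (42.9% together) of 15532 genes. Their median was 0.64, against -0.04 over all genes. Neuronal markers summed to 5698 and 6963 CPM in these cells against 8073 and 8671 CPM in neurons. Radial glial markers summed to 1634 and 821 CPM, mural markers to 328 and 316 CPM and Cajal-Retzius markers to 679 and 892 CPM, against 291 and 238, 2.4 and 2.6, and 24.5 and 27.9 CPM in neurons. Their part in the differences was not tested.

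Col9a2 stood at 51.6 and 30.6 CPM against 1.09 and 0.698 CPM, a difference of 5.38 ± 0.20 (adjusted p = 3.1e-05). The minor type IV chains were all higher: Col4a3 by 5.68 ± 1.14 (adjusted p = 0.011), from an uneven 5.98 and 0.478 CPM, Col4a4 by 3.24 ± 0.57 (adjusted p = 0.0061), Col4a5 by 4.40 ± 0.49 (adjusted p = 0.0011) and Col4a6 by 3.0 ± 0.66 (adjusted p = 0.014). Without the library block Col4a6 was not called (adjusted p = 0.058), nor was Col11a1 (0.069). Col5a2 was higher by 2.49 ± 0.35 (adjusted p = 0.0027) and Col2a1 by 2.91 ± 0.54 (adjusted p = 0.0076), and Lama5 and Col11a1 by 2.79 ± 0.58 (adjusted p = 0.011) and 0.64 ± 0.16 (adjusted p = 0.02). Of the integrins, Itgb5 was higher by 4.55 ± 0.75 (adjusted p = 0.0047), Itga5 by 3.66 ± 0.89 (adjusted p = 0.019) and Itgav by 1.83 ± 0.24 (adjusted p = 0.0019). Itga6, at 4.78 and 6.69 CPM against 23.6 and 20.4 CPM, was lower, at -2.10 ± 0.24 (adjusted p = 0.0012), as was Lamb1, at -1.52 ± 0.28 (adjusted p = 0.0072). Lama1 had 2 UMIs, a ratio of 0.0503 (exact 95% counting interval 0.00607 to 0.183). Col15a1 had no UMI against 3.63 and 8.28 CPM in neurons, at least 18.1-fold lower (edgeR adjusted p = 0.002, DESeq2 0.16).

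Inside the gates that both groups share, no member passed the threshold between i4F-Nes and CTR. The radial glia and neuron gates left out cells with more than a few reprogrammed markers, so these results do not cover such cells. In radial glia edgeR called 0 of 38 members and 0 of 13120 genes, with 8 members and 574 genes at an unadjusted p under 0.05, and DESeq2 called 0 members and 18 genes. The median log2 difference of the 38 was 0.43, with 34 above 0, against 0.00 over all genes. It depended on the libraries used: it was 0.15 without CTR replicate 1, with 26 of 39 above 0. Without CTR replicate 2 it was 0.52, with 38 of 45 above 0. Leaving out i4F-Nes replicate 1 or 2 gave 0.49 or 0.27. Col9a3 stood at 24.6, 27.3, 15.7 and 14.1 CPM, a difference of 0.77 ± 0.19 (adjusted p = 0.81). Lama4 stood at 1.89, 2.23, 0.0979 and 0.188 CPM, from 35 and 2 UMIs, a ratio of 15.54 (exact 95% counting interval 3.99 to 133) with an adjusted p of 0.51. Col2a1 differed by 0.45 ± 0.16 (adjusted p = 0.99) and Itgb8 by 0.32 ± 0.14 (adjusted p = 0.99). The markers of reprogrammed progenitor-like cells summed to 86.4 and 136 CPM in radial glia of i4F-Nes against 56.5 and 76.6 CPM in CTR, and their part was not tested.

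In neurons edgeR called 0 of 48 members and 0 of 16087 genes, with 4 members and 303 genes at an unadjusted p under 0.05, and DESeq2 called 0 members and 13 genes. The test of whether radial glia and neurons differ in their i4F-Nes response found 0 of 57 members and 0 of 16258 genes by edgeR, with 5 members and 930 genes at an unadjusted p under 0.05, and 0 of each by DESeq2.

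In vascular cells 0 of 17 endothelial and 0 of 25 mural members passed, beside 0 of 6214 and 4 of 6233 genes (0.0642%) by edgeR, and 0 members in either by DESeq2. These fits keep CTR replicate 1, with 14 and 15 cells, and were added after the cells had been counted. The doublet score marked 21 of 22 endothelial and 24 of 24 mural cells of i4F-Nes replicate 1, against 0 of 14 and 1 of 15 in CTR replicate 1. In i4F-Nes replicate 2 it marked 9 of 42 and 12 of 33, and in CTR replicate 2 it marked 13 of 20 and 12 of 26. Marked cells were kept in these gates, and their part in the vascular values was not tested. At an unadjusted p under 0.05 there were 3 endothelial and 2 mural members, beside 287 of 6214 and 380 of 6233 genes. In endothelial cells Itga5 stood at 72.1, 68.5, 36.3 and 24.5 CPM, a difference of 1.17 ± 0.40 (adjusted p = 0.96). Lamc1 differed by 0.86 ± 0.34 (adjusted p = 0.96) and Col4a2 by 0.59 ± 0.27 (adjusted p = 0.96). In mural cells Col18a1 stood at 59.8, 74.2, 21.1 and 29.4 CPM, a difference of 1.37 ± 0.43 (adjusted p = 0.46), and Lama2 differed by 0.88 ± 0.38 (adjusted p = 0.78).

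In microglia 0 of 7 members passed by edgeR and by DESeq2, beside 6 of 6038 genes (0.0994%, with 0.0828% higher) by edgeR. At an unadjusted p under 0.05 edgeR gave 3 of the 7 members and 566 of the 6038 genes. Itgam, whose levels are given above, differed by -1.5 ± 0.50 (adjusted p = 0.35) and passed only without i4F-Nes replicate 1 (adjusted p = 0.0037). Itga9 differed by -1.46 ± 0.56 (adjusted p = 0.45) and Itgb5 by -0.84 ± 0.38 (adjusted p = 0.51).

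Genes that act with these proteins were followed as 5 lists. Over all kept cells 4 of 16 tested non-integrin matrix receptors were higher in i4F-Nes, among them the hyaluronan receptor Cd44 at 3.43 ± 0.42 (adjusted p = 0.023) and the adhesion receptor Adgrg6 at 3.11 ± 0.38 (adjusted p = 0.023). Of 21 other basement membrane and matrix proteins 3 were higher, led by the fibulin Fbln2 at 3.93 ± 0.24 (adjusted p = 0.0053). Of 21 matrix proteases and inhibitors, the inhibitors Timp1 at 5.93 ± 0.38 (adjusted p = 0.0058) and Timp3 at 2.23 ± 0.16 (adjusted p = 0.0074) were higher. Of 26 genes of collagen processing and secretion Pcolce2 was higher, at 2.68 ± 0.44 (adjusted p = 0.049), and of 25 genes of the integrin adhesion complex the kindlin Fermt1, at 3.03 ± 0.49 (adjusted p = 0.049). No gene of these lists was lower, beside 2.65% higher and 0 lower of all genes. The median log2 difference was 0.89 for the matrix proteins and 0.10 to 0.29 for the other lists, against -0.02 over all genes.

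In reprogrammed progenitor-like cells against radial glia, 11 of 17 other matrix proteins were higher and 4 lower, with Ecm1 at 5.62 ± 0.20 (adjusted p = 1.3e-06) and the secreted matrix protein osteopontin, Spp1, at -3.77 ± 0.27 (adjusted p = 2.9e-05). Of 23 collagen processing genes 6 were higher and 7 lower, with the collagen prolyl hydroxylase P4ha3 at -4.93 ± 0.23 (adjusted p = 4.5e-06). Of 22 adhesion complex genes 4 were higher and 6 lower, and of 15 other receptors 6 were higher and 4 lower. Of 17 proteases and inhibitors 6 were higher and 5 lower, with Timp1 at 6.35 ± 0.34 (adjusted p = 0.0003). Of all genes in that comparison 25.2% were higher and 20.9% lower. In mural cells against radial glia 17 of 23 collagen processing genes were higher and 3 lower, and 15 of 21 adhesion complex genes were higher and none lower, beside 20.5% and 20.3% of all genes. In neurons against radial glia these lists gave 6 higher and 16 lower of 24, and 5 higher and 15 lower of 23, beside 42% and 37.5% of all genes.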

How the data were processed

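The authors deposited, per library, raw UMI counts of each gene in each barcode as a sparse matrix, made with cellranger 7.0.1 per the file headers. Per the submitters' processing notes reads were placed on mm10, and the release of the gene annotation is not given in the sources used here. Barcodes with at least 1000 UMIs, 500 genes and at most 10% mitochondrial UMIs passed (28672 of 35255). The barcodes with the highest doublet scores, 0.8% per 1000 barcodes, were removed with scanpy 1.11.5 (1924). Gated endothelial cells, mural cells and microglia were exempt (107 barcodes), a choice made after seeing that the score took 43 of 98 endothelial and 49 of 98 mural cells, unevenly over libraries. A gate asked for UMIs of a set number of markers (such as 9 of 14 for radial glia) and for few markers of other lists. Cells with more than a few reprogrammed, endothelial, mural or microglial markers were thus left out of the radial glia and neuron gates. Of the kept cells, 8901 fell in no gate. Python 3.11.15 was used.

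Counts were summed per library and gate and tested with edgeR 4.0.16 (R 4.3.3; quasi-likelihood test, TMM, filterByExpr, Benjamini-Hochberg adjustment over all genes tested, threshold 0.05). DESeq2 1.42.0, other scalings, filters and gates, and leaving out each library, were alternatives. The script was tested on simulated data. Gene positions come from GENCODE (GRCm38), which matched 81 of 81 genes. By rule, 51 members are named: those past the threshold between i4F-Nes and CTR, the 5 highest of each gate, up to 10 with the largest called differences between gates, and a fixed list of main chains. Of each pathway list, genes among the 3 largest called changes are named. Members, marker lists and pathway lists were chosen with earlier results of these data known.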

Additional observations from a re-analysis of the deposited data

How the results depend on the processing

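Of 129 results on single genes, 1233 values were recomputed: 1142 kept their direction and, where tested, their side of the threshold. A further 42 kept the direction but missed the threshold, 2 newly passed and 0 reversed. Another 47 came from a single i4F-Nes library without a test and were counted as moved. Some of the 1142 also came from a single i4F-Nes library without a test, in the comparisons of reprogrammed cells. The cause of the changes below was not tested. Over all kept cells, members past the threshold went from 10 to 23 with DESeq2 and to 0 without reprogrammed cells, with 10 to 18 when 1 library was left out. Genes went from 494 to 1209 with DESeq2, 902 with no low-count filter and 0 without reprogrammed cells, with 606 to 894 when 1 library was left out. Between i4F-Nes and CTR in radial glia, 0 members became 1 with no low-count filter (0 to 1 without 1 library), and 0 genes became 18 with DESeq2 and 109 with no filter (4 to 147 without 1 library). In neurons 0 genes became 13 with DESeq2 (1 to 17 without 1 library). For the difference between these gates no filter gave 1 member and 161 genes (0 to 2 members and 0 to 285 genes without 1 library). In endothelial cells 0 genes became 46 with no filter (0 to 130 without 1 library). In mural cells 4 genes became 20 with DESeq2, 188 with no filter and 8 with RLE scaling (13 to 138 without 1 library). In microglia 6 genes became 17 with DESeq2, 105 with no filter and 29 with doublet removal in every gate, chosen after seeing the data (27 to 223 genes and 0 to 1 members without 1 library). Between reprogrammed progenitor-like cells and radial glia, 6665 genes became 3548 with DESeq2 and 4386 without the library block. Replicate numbers are in the labels, but nothing ties same-numbered samples to each other. Replicate 1 minus 2 correlated between the groups at r = 0.51 over 18612 genes, which are not independent. With the replicate number as a block, calls went to 30 members and 2495 genes over all kept cells, 3 members and 156 genes in radial glia, 3 members and 1204 genes in neurons, 37 genes in mural cells and 51 genes in microglia. Vascular gates of 14 to 42 cells and microglia of 30 to 51 limit what can be detected there. No vascular comparison could be fitted with doublet removal in every gate. i4F-Nes replicate 1 then kept 1 endothelial and 0 mural cells. CTR replicates 1 and 2 kept 14 and 7 endothelial and 14 and 14 mural cells. Only i4F-Nes replicate 2 thus held the 20 cells asked for against radial glia.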
